A study of Mus musculus with 12 samples.

Results

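The 10 genes of the EGF receptor system examined here were the receptors Egfr, Erbb2 and Erbb3, the ligands Areg, Ereg, Hbegf, Tgfa, Btc and Epgn, and Errfi1, an intracellular inhibitor of the receptors. Their probes were all those whose symbol in the platform annotation was one of these 10, a rule that uses no measured value, although the genes were picked with earlier results of these data known. Egf itself was left out. The annotation named 9 of them, with 17 of the 45135 probes on the array. Areg was named by no probe and was not analysed here. Of the 9 annotated genes, 6 had a probe bright enough to be tested, among 10346 such genes of the 19031 named on the array.

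Expression was measured on 12 Illumina mouse WG-6 v2 arrays. The study injected SCC-7 cells, a murine squamous cell carcinoma line, into the floor of the mouth of BALB/c-nu mice, which are athymic. It profiled 5 primary tumors of the oral cavity, the 5 recurrent tumors that grew after microsurgical removal of those primary tumors, and 2 samples of the SCC-7 line itself, grown in MEM with fetal calf serum. All tumors thus descended from 1 cultured line, each primary tumor shared its animal with the recurrence of the same number, and the ages and growth times of the mice are not given in the sources used here. The labels do not say whether the SCC-7 samples came from separate cultures, so their spread may be technical.

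EGF family ligands are made as membrane-anchored precursors, are released by metalloproteases and bind the extracellular part of EGFR, and some of them also bind ERBB4. Ligand-bound receptors pair with each other or with ERBB2, which has no known ligand, or ERBB3, whose kinase is nearly inactive, and signal through RAS and ERK and through PI3K. ERRFI1, also called MIG6, binds the kinase domain of EGFR and ERBB2 and dampens them, and EGFR is highly expressed in many squamous cell carcinomas of the head and neck.

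Several features of the arrays bear on these genes. Detection of a probe required that fewer than 1 in 100 of the 943 negative controls reached its intensity, and 13711 to 17083 probes per array passed. The tumors were mixed tissue: the mean log2 level of 10 measured macrophage markers was 9.36 to 11.15 in the tumors and 6.57 to 6.65 in SCC-7 cells, and 7 of the 10 were detected in both SCC-7 samples. Of 17 squamous keratinocyte markers, 8 were measured and 5 were detected in both SCC-7 samples (Krt14, Krt17, Trp63, Itgb4 and Lamb3), whereas Krt5 was detected in neither and Krt6a, Krt16, Sfn, Dsg3, Dsc3, Perp and Ivl were detected on no array. Primary tumor 1 had the highest mean level of 13 salivary gland markers, 13.58, and its recurrence the lowest among the tumors, 4.99. Primary tumor 3 stood apart with a mean of 10.18 over 6 T and NK cell markers, against 5.81 to 7.24 in the other tumors, and also had the highest means of the neutrophil (8.36), fibroblast (8.62) and endothelium (8.42) markers and the lowest of the macrophage markers (9.36).

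Of the receptors and ligands, Erbb3, Ereg and Tgfa were not detected on any of the 12 arrays. ERBB3 is the family member that recruits PI3K most directly, and its single probe read 55.6 to 71.8 on the deposited intensity scale, where the 99th percentile of the negative controls was 78.4 to 90.3. Epiregulin (Ereg) had 2 probes, which read 57.2 to 68.2 and 51.2 to 66.6, and transforming growth factor alpha (Tgfa) had 1, which read 63.0 to 79.6. All 4 probes thus lay within the range of the negative controls in tumors and in cultured cells alike, and no level or fold change is given for them. A second probe each of Hbegf and Epgn, and ILMN_2614432 and ILMN_2581001, the dimmest of the 6 Egfr probes, were also detected on no array. Transcripts below this brightness are not excluded by it.

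**Figure D1:**
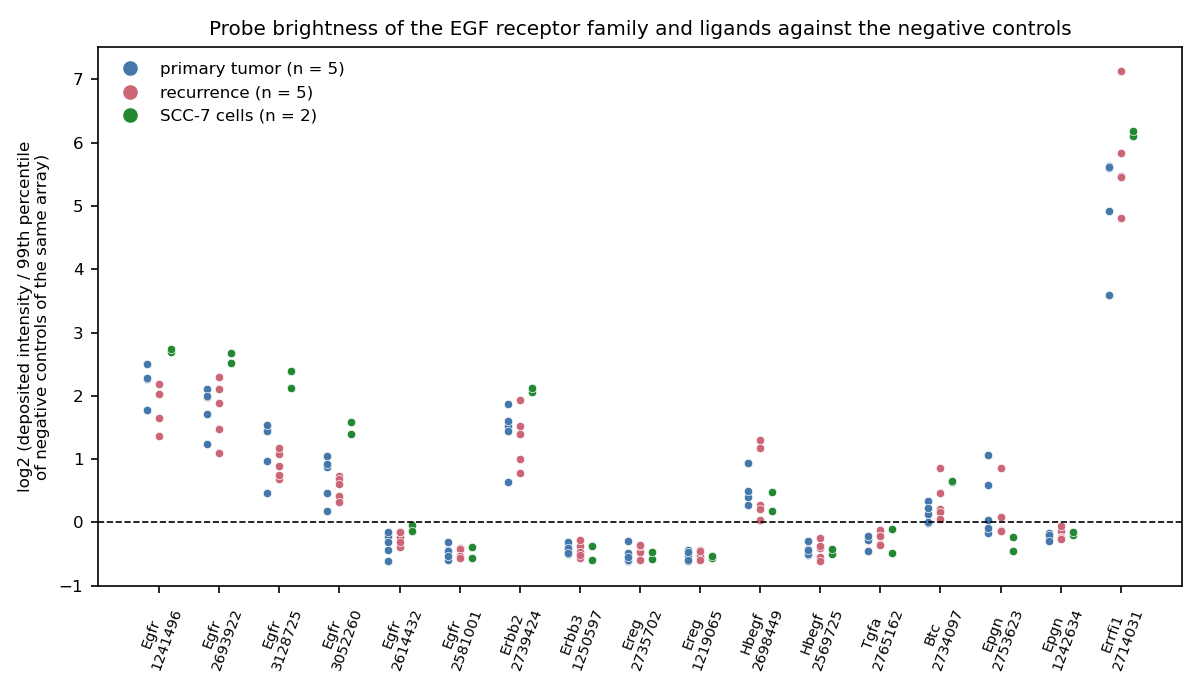
Deposited intensity of every probe of the 9 annotated genes, as log2 of its ratio to the 99th percentile of the negative controls on the same array (vertical axis), with 1 point per array for 5 primary tumors, 5 recurrences and 2 SCC-7 samples. Points above the dashed line at 0 are brighter than that percentile, and the probes of Erbb3, Ereg and Tgfa lie below it on all 12 arrays.

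On chromosome 5 the genes Epgn, Ereg, Areg and Btc follow one another in this order among protein-coding genes, and the 3 measured here differed in detection. Ereg was never detected. Betacellulin (Btc), a ligand of EGFR and ERBB4, was detected on 11 arrays and missed only in primary tumor 1. Epigen (Epgn), a low-affinity ligand of EGFR, was detected on 5 arrays, namely primary tumors 1, 2 and 5 and recurrences 1 and 2, and in neither SCC-7 sample.

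Egfr itself (chromosome 11) was lower in the tumors than in the cultured cells from which they grew. With probe ILMN_1241496, the brightest of its 4 detected probes over the 12 arrays, the log2 levels in primary tumors 1 to 5 were 8.21, 8.24, 7.71, 8.42 and 8.76. In recurrences 1 to 5 they were 8.10, 7.98, 7.61, 8.33 and 7.80, and the SCC-7 samples read 9.25 and 9.24. Both SCC-7 samples were above all 10 tumors, while primary and recurrent tumors overlapped. The same separation was seen with ILMN_2693922 (6.999 to 8.29 in the tumors, 9.07 and 9.17 in SCC-7 cells), ILMN_3128725 (5.81 to 7.69, against 8.93 and 8.59) and ILMN_3052260 (5.33 to 6.93, against 7.85 and 8.01). Across all tested probes it is not rare, since 4469 of 18454, or 24.2%, had both SCC-7 samples above every tumor.

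In limma's fit of the 3 groups, with Benjamini-Hochberg adjustment over 18454 probes, a probe was called when its adjusted p was under 0.05 and the groups differed by 2-fold or more. Egfr was called lower in recurrent tumors with all 4 probes, a call that 5.02% of probes shared. The log2 difference was -1.28 ± 0.27 (SE) with ILMN_1241496 (2.43-fold lower, limma adjusted p = 0.00736), -1.28 ± 0.36 with ILMN_2693922 (adjusted p = 0.0325), -2.02 ± 0.40 with ILMN_3128725 (adjusted p = 0.00534) and -1.75 ± 0.36 with ILMN_3052260 (adjusted p = 0.00715). The last pair of probes is annotated to the same transcript record, and their folds, 4.06 and 3.36, were the larger ones. They were also the dimmer of the 4, so their folds depend more on the background estimate. Without background correction the log2 differences in recurrent tumors were -1.64 (ILMN_3128725) and -1.28 (ILMN_3052260), beside -1.14 (ILMN_1241496) and -1.12 (ILMN_2693922). ILMN_2693922 is annotated to another record and ILMN_1241496 to none, and whether the probes measure the same transcripts was not tested. In primary tumors the call, made for 5.73% of probes, held with 3 of the 4 probes, at 2.34-fold (ILMN_2693922), 3.24-fold (ILMN_3128725) and 2.89-fold lower (ILMN_3052260), with limma adjusted p = 0.0378, 0.0139 and 0.0147. ILMN_1241496 was 1.97-fold lower in primary tumors (log2 difference -0.98 ± 0.27, adjusted p = 0.0269), just under the fold required. Both tumor groups were set against the same 2 SCC-7 samples, so these comparisons are not independent. With 1 SCC-7 sample left, here and below, the standard error grows with the smaller number, and the spread is estimated again from the tumors alone. A call lost that way does not show that it rested on the sample left out. Without SCC-7 sample 1 no Egfr probe passed in either comparison (adjusted p = 0.0707 to 0.192), and without sample 2 only ILMN_3128725 in recurrent tumors did (adjusted p = 0.0476), with log2 differences that stayed between -2.19 and -0.98. ILMN_2693922 also lost its call in primary tumors without primary tumor 2 (adjusted p = 0.0563) or primary tumor 3 (log2 difference -0.9995), and in recurrent tumors without recurrence 3 (adjusted p = 0.0592) or recurrence 5 (adjusted p = 0.0624). Conversely, ILMN_1241496 passed in primary tumors without primary tumor 4 (log2 difference -1.02) or primary tumor 5 (-1.10). Since these are bulk samples, fewer cancer cells and less Egfr RNA per cell cannot be told apart, and the part of the macrophage and other host markers given above in these differences was not tested.

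The 4 Egfr probes varied together among the tumors. Over the 10 tumors their pairwise correlations were 0.76 to 0.96, and 0.55 to 0.91 without primary tumor 3, which had the lowest value with 3 of the 4 probes. These are descriptions over arrays that share normalization and tissue makeup, and carry no test.

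Erbb2 (chromosome 11), the preferred partner of the other receptors, showed the same order of groups. Its log2 levels were 8.34, 7.39, 6.11, 7.44 and 7.77 in primary tumors 1 to 5 and 7.33, 7.87, 7.08, 7.55 and 6.63 in recurrences 1 to 5. Both SCC-7 samples read 8.59 and lay above every tumor, though primary tumor 1 came close. The difference did not pass the test in primary tumors (log2 difference -1.18 ± 0.48 (SE), limma adjusted p = 0.107) or in recurrent tumors (-1.30 ± 0.48, adjusted p = 0.0826). Without primary tumor 1, the tumor with the highest salivary marker level, the former was -1.41 with an adjusted p of 0.0497, so that the call turned on 1 tumor. Erbb2 followed Egfr among the tumors most closely with ILMN_2693922, at r = 0.84 over 10 tumors and 0.71 without primary tumor 3. With ILMN_1241496, ILMN_3128725 and ILMN_3052260 r was 0.61, 0.74 and 0.67 over 10 tumors. Without primary tumor 3 these values were 0.50, 0.48 and 0.34.

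Among the ligands, Btc was the one called against SCC-7 cells, and it was lower in primary tumors. Its log2 levels were 5.27, 5.78, 5.05, 5.54 and 5.84 in primary tumors 1 to 5, 5.58, 5.36, 5.42, 6.66 and 6.13 in recurrences 1 to 5, and 6.87 and 6.86 in the SCC-7 samples. All 10 tumors were below both SCC-7 samples, with recurrence 4 the nearest. Btc was 2.57-fold lower in primary tumors (log2 difference -1.36 ± 0.34 (SE), limma adjusted p = 0.0198) and 2.04-fold lower in recurrent tumors, where it missed the threshold (-1.03 ± 0.34, adjusted p = 0.0582). Without recurrence 4 it passed there as well (-1.24, adjusted p = 0.0163), and without SCC-7 sample 1 or 2 it did not pass in primary tumors (adjusted p = 0.151 and 0.144). The Btc probe was dim, at most 158 on the deposited scale, so its folds depend on the background estimate, and without background correction the difference in primary tumors was -0.82 with an adjusted p of 0.0167, under 2-fold.

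Since Egfr and Btc were the genes of the family that passed a test against SCC-7 cells, their upstream sequences are shown. They are the 250 bases 5′ of the annotated start on the coding strand, from RefSeq on GRCm38.p6, at chr11:16751953-16752202 (plus strand) for Egfr and chr5:91402995-91403244 (minus strand) for Btc. Capitals mark matches, on either strand, to GGGCGG (the core of the SP1 binding site), TATAAA (the TATA box) or TGANTCA (the AP-1 site).
Egfr: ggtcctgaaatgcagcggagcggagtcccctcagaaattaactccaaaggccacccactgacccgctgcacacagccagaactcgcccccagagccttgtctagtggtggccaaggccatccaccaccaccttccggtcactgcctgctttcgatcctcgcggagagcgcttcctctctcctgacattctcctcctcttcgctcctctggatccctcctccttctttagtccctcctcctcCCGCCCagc
Btc: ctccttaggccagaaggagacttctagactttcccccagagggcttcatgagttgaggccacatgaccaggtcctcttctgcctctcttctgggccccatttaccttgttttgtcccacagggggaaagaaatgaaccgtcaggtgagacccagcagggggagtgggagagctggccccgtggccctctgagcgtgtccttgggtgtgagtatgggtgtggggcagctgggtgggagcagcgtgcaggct
Egfr held 1 GGGCGG match, on the opposite strand near its 3′ end, and no match to the other motifs. Btc held none of the 3. In 32851 upstream sequences of the same length these motifs occurred in 32.7%, 12.4% and 6.75%. Both were richer in G and C (60.8% and 59.6%) than the median upstream sequence, at 52.4%. A match describes these letters and is not evidence of binding.

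Heparin-binding EGF-like growth factor (Hbegf, chromosome 18), a ligand of EGFR and ERBB4, showed no separation of the groups. Its log2 levels were 5.89, 5.87, 6.55, 6.17 and 6.91 in primary tumors 1 to 5 and 5.69, 5.16, 5.74, 7.11 and 7.34 in recurrences 1 to 5, with 6.12 and 6.59 in SCC-7 cells. The recurrences thus spread more widely (SD 0.96, n = 5) than the primary tumors (SD 0.45, n = 5), and the SCC-7 values fell inside both. The log2 difference from SCC-7 cells was -0.08 ± 0.54 (SE) in primary tumors (limma adjusted p = 0.932) and -0.15 ± 0.54 in recurrent tumors (adjusted p = 0.871). Both signs turned with another scaling of the arrays, and no direction is given.

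Epgn was brightest in primary tumors 1 and 2 and recurrence 2. Its log2 levels were 6.51, 6.81, 4.75, 5.10 and 5.45 in primary tumors 1 to 5, 5.36, 6.47, 5.04, 4.95 and 4.99 in recurrences 1 to 5, and 4.45 and 4.89 in SCC-7 cells, where it was not well above background. The lowest detectable level was 5.04 to 5.70 per array, and the values below it have no order. Neither comparison with SCC-7 cells passed the test (limma adjusted p = 0.204 in primary and 0.421 in recurrent tumors), and no fold is given, since Epgn was detected in 3 primary and 2 recurrent tumors and primary tumor 5 lay below the lowest level detectable in SCC-7 cells. Primary tumor 1 and recurrence 2, both among the 3 tumors in which Epgn exceeded 6, also had the highest mean levels of 5 measured adipocyte markers, 7.90 and 7.80. They came from a list of 9 genes added after the values were seen, of which Fabp4, Plin1 and Retn were detected on no array. Primary tumor 2, with the highest Epgn level, had 6.49 for the 5 measured markers, and their part in the Epgn levels was not tested.

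Errfi1 (chromosome 4) was well above the controls on every array. Its log2 levels were 11.72, 11.72, 9.79, 11.88 and 11.90 in primary tumors 1 to 5 and 11.75, 13.66, 11.50, 12.08 and 11.81 in recurrences 1 to 5. The SCC-7 samples read 12.62 and 12.63, above all tumors except recurrence 2. The log2 difference from SCC-7 cells was -1.22 ± 0.63 (SE) in primary tumors (limma adjusted p = 0.189) and -0.47 ± 0.63 in recurrent tumors (adjusted p = 0.639). Most tumors lay close together and the spread came from primary tumor 3, the tumor whose host cell markers stood apart, and recurrence 2.

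**Figure D2:**
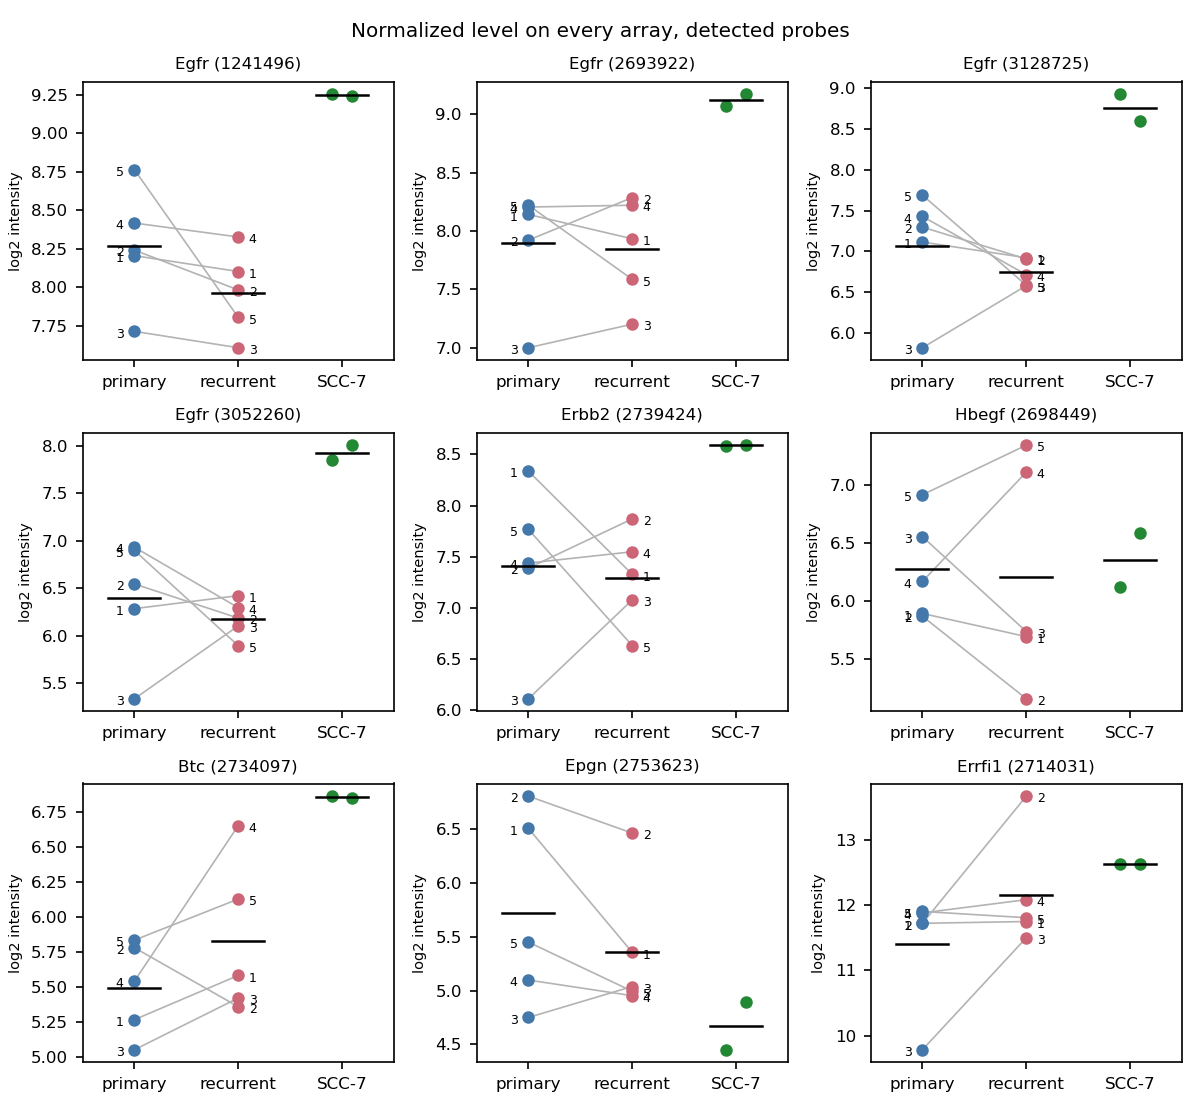
Normalized log2 intensity of each detected probe (vertical axis, own scale in each panel) on every array, for 5 primary tumors, 5 recurrent tumors and 2 SCC-7 samples. Numbers are the animals, grey lines join the tumors of an animal and black bars are group means. SCC-7 samples lie above all 10 tumors in the panels of Egfr, Erbb2 and Btc, and inside the range of the tumors for Hbegf.

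No gene of the family was called higher in tumors than in SCC-7 cells, a call made for 6.64% of probes in primary and 6.86% in recurrent tumors. The median log2 difference of all tested probes was -0.15 in primary and -0.11 in recurrent tumors against SCC-7 cells. With the arrays scaled to equal medians in place of quantile normalization these medians were 0.08 and 0.13, and the share of calls that were lower moved from 46.3% to 21.2% in primary and from 42.3% to 17.3% in recurrent tumors. The differences of Egfr, Erbb2 and Btc from SCC-7 cells stayed negative under that scaling, but of the 4 Egfr probes ILMN_1241496 (recurrent tumors, adjusted p = 0.0511), ILMN_2693922 (adjusted p = 0.124 in primary and 0.113 in recurrent tumors) and ILMN_3052260 (primary tumors, adjusted p = 0.0539) lost a call, as did Btc in primary tumors (adjusted p = 0.104).

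**Figure D3:**
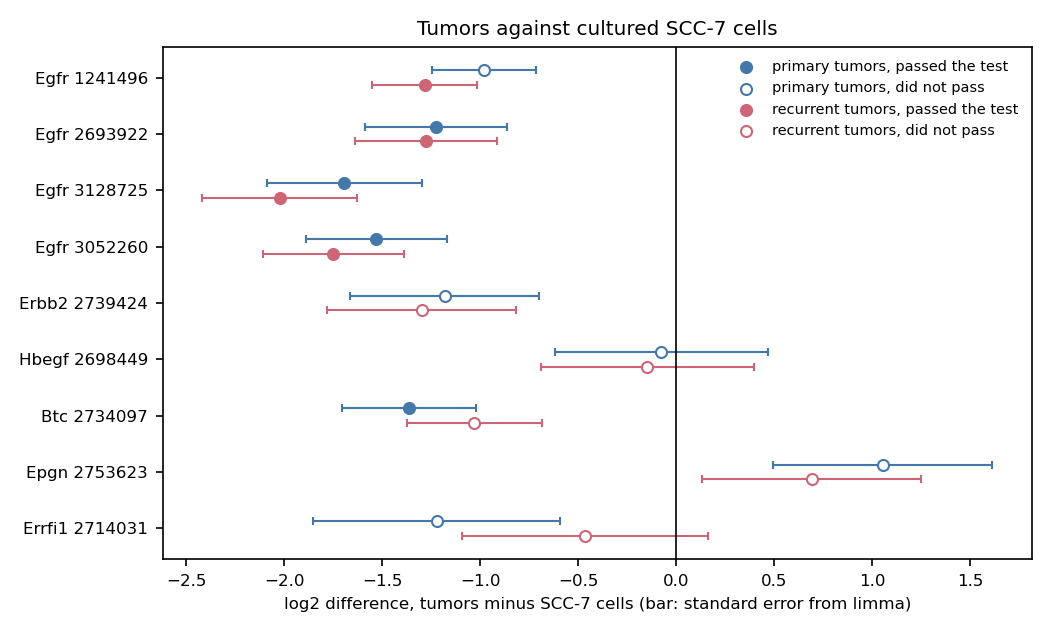
Log2 difference between tumors and SCC-7 cells (horizontal axis) for each detected probe, with bars for the standard error from limma. Filled points passed the test, with an adjusted p under 0.05 and a difference of 2-fold or more. All 4 Egfr probes were filled for recurrent tumors, 3 for primary tumors, and Btc for primary tumors. Epgn was not well above background in SCC-7 cells, so its points are fitted values and no measured size.

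Recurrent and primary tumors were compared to see whether the receptor system changed when the tumor grew back. No gene of the family passed the test, and neither did any other probe: limma, with the animal as a block, called 0 of 18454 probes (0%), with adjusted p values of 0.933 or above. Before adjustment 601 probes had a p under 0.05, of which 0 belonged to the family, and the methods' t-test gave 423, again with 0 of the family.

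Egfr measured by ILMN_1241496 was lower in the recurrence of 5 of 5 animals, with log2 ratios of -0.10, -0.26, -0.11, -0.09 and -0.96 in pairs 1 to 5. The mean was -0.30 ± 0.18 (SE, limma adjusted p = 0.933), and the size came mostly from pair 5. The other Egfr probes were lower in 2, 4 and 3 of the 5 pairs (ILMN_2693922, ILMN_3128725 and ILMN_3052260), with mean log2 ratios of -0.05, -0.33 and -0.22 and limma adjusted p of 0.976, 0.933 and 0.940. Pair 3 was opposite to pair 5 with all 3 of these probes.

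Erbb2 changed in opposite directions between animals. Its log2 ratios were -1.01, 0.48, 0.97, 0.11 and -1.14 in pairs 1 to 5, so that 2 pairs were at least 2-fold lower and 3 were higher. The mean was -0.12 ± 0.34 (SE, limma adjusted p = 0.971), and it was 0.11 without pair 1.

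The ligands and Errfi1 did not pass either. Hbegf had log2 ratios of -0.20, -0.71, -0.82, 0.94 and 0.43, a mean of -0.07 ± 0.29 (SE, limma adjusted p = 0.981). Btc was higher in 4 of 5 pairs, by 1.11 in pair 4 and by at most 0.37 in the other 3, with a mean of 0.33 ± 0.23 (adjusted p = 0.933). Epgn was detected in both tumors of pairs 1 and 2 alone, with log2 ratios of -1.15 and -0.34. In the other pairs at least 1 tumor was not well above background, so no mean ratio is given (limma adjusted p = 0.933). Errfi1 had the largest mean of the family, 0.76 ± 0.36 (SE, limma adjusted p = 0.933, unadjusted p = 0.0780), from log2 ratios of 0.03, 1.94, 1.71, 0.20 and -0.10. Recurrence 2, with the highest value, and primary tumor 3, with the lowest, made up these 2 large ratios, while the other 3 pairs were close to 0.

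By the criterion of an altered level in at least 3 of 5 pairs, applied here at 2-fold in 1 direction, no gene of the family was selected. Over all tested probes 0.997% met it as higher, 0.341% as lower and 1.34% in either direction. Errfi1 (2 pairs higher) and Erbb2 (2 pairs lower) came nearest. Without pair 1, whose tumors were at the ends of the salivary marker range, no gene of the family passed in limma either (adjusted p = 0.906 to 0.994).

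**Figure D4:**
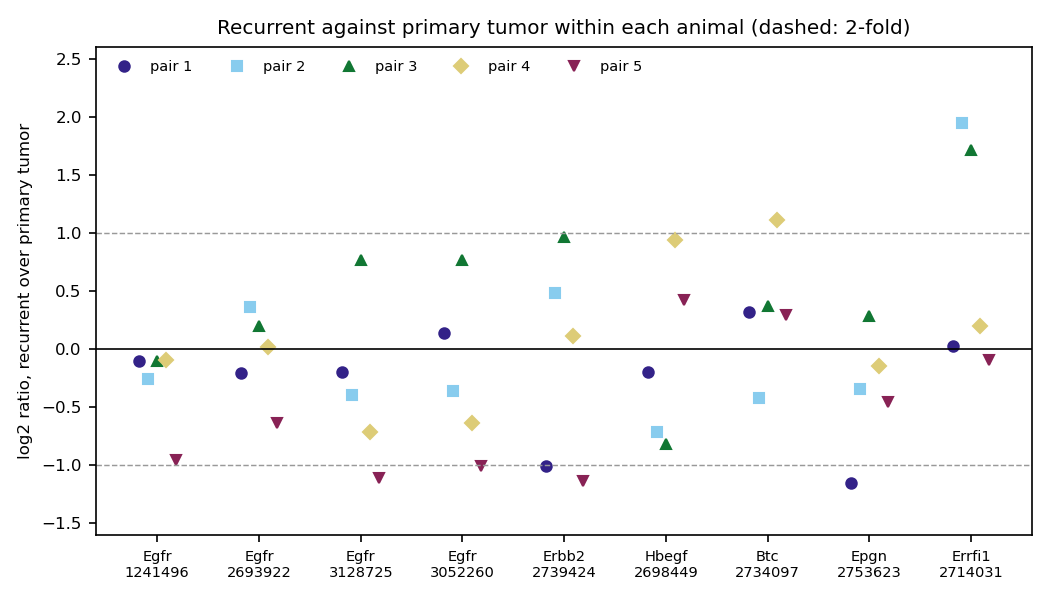
Log2 ratio of the recurrent over the primary tumor in each of 5 animals (vertical axis) for every detected probe, with dashed lines at 2-fold. The points of 1 gene fall on both sides of 0 for all probes except Egfr ILMN_1241496, and Errfi1 has 2 ratios above 2-fold and 3 near 0. The Epgn ratios of pairs 3 to 5 include tumors not well above background.

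Genes that varied like a member of the family are given for 3 of the 4 members with the largest SD over the 10 tumors. Epgn, the other, was detected in 5 of the 10 and is left out. For Errfi1 (SD 0.93) they were Eif4a1, Gars and Mnat1, with r = 0.97, 0.97 and 0.96, and with r = 0.64, 0.58 and 0.38 once primary tumor 3 and recurrence 2 were left out, so the likeness rested largely on those tumors. Hbegf (SD 0.71) was followed most closely by Creld1, Gpr84 and Babam1 (r = 0.95, 0.95 and 0.94), and Erbb2 (SD 0.63) by Gpr89, Rusf1 and Stard13 (r = 0.95, 0.94 and 0.93). For Hbegf and Erbb2 r was still 0.82 or more without the pair of tumors farthest from the median. The 3 genes were in each case the closest of all measured genes over 10 arrays, which favors high values, and they are a description.

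Downstream of the receptors, 72 further genes in 5 lists were examined, of which 63 were annotated and 48 measured. None was called between recurrent and primary tumors. Against SCC-7 cells, primary tumors had 3 of the 48 called higher and 3 lower, beside 6.64% and 5.73% of all tested probes. Recurrent tumors had 4 called higher and 3 lower, beside 6.86% and 5.02%. These counts were near the share over all probes. The median log2 difference of the 48 genes was 0.00 in primary and 0.10 in recurrent tumors, beside -0.15 and -0.11 over all tested probes. None of the 6 measured sheddases and cofactors, which release the ligands, and none of the 13 measured adaptors and kinases of the RAS, ERK and PI3K branches was called in either comparison, where the shares over all probes would give about 1 call or none in each direction and list.

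Neuregulin 1 (Nrg1), a ligand of ERBB3 and ERBB4, was the other ligand lower in tumors. It measured 5.58 ± 0.34 (SD, n = 5) in primary tumors, 5.88 ± 0.47 (SD, n = 5) in recurrent tumors, and 7.04 and 7.14 in SCC-7 cells, with log2 differences of -1.51 (limma adjusted p = 0.00749) and -1.20 (adjusted p = 0.0223). The Nrg1 probe was dim in tumors, detected in 4 of 5 primary and 4 of 5 recurrent tumors, with lowest levels of 5.19 and 5.13. The means, SDs and differences of Nrg1 include the tumors in which it was not detected. Its receptors Erbb3 and Erbb4 were both without a measured probe. Without SCC-7 sample 1 the adjusted p of Nrg1 was 0.0768 in primary tumors and 0.144 in recurrent tumors, and without sample 2 it was 0.0940 and 0.171. With median scaling Nrg1 did not pass in recurrent tumors (-0.80, adjusted p = 0.155).

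Of 13 measured feedback inhibitors, 1 was called higher and 1 lower in each tumor group, near the shares over all probes given above. Dusp6, a phosphatase that inactivates ERK in the cytoplasm, was higher in tumors, at 11.88 ± 0.24 (SD, n = 5) in primary and 11.92 ± 0.18 in recurrent tumors against 10.59 and 10.36 in SCC-7 cells, with log2 differences of 1.40 and 1.44 (limma adjusted p = 0.000803 and 0.000676). Dusp4, a nuclear phosphatase of the same family, was lower, at 7.67 ± 1.15 (SD, n = 5) and 7.64 ± 0.47 against 9.99 and 10.04, with log2 differences of -2.35 and -2.38 (limma adjusted p = 0.0242 and 0.0224). These related phosphatases thus moved in opposite directions. The call for Dusp6 held without either SCC-7 sample, while that for Dusp4 did not (adjusted p = 0.153 to 0.165).

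Of 14 measured transcripts that ERK is known to induce, primary tumors had 2 called higher and 1 lower, and recurrent tumors had 3 called higher and 1 lower, beside 6.64% and 5.73% of all probes in primary and 6.86% and 5.02% in recurrent tumors. Fos, the immediate early AP-1 subunit, was detected in all 10 tumors, at 6.45 to 7.98 in primary and 7.11 to 8.19 in recurrent tumors, and was not well above background in either SCC-7 sample (4.72 and 5.07). Against the lowest detectable level there, and with the main background correction, Fos was at least 2.70-fold higher in primary and at least 3.93-fold higher in recurrent tumors. The fitted log2 differences were 2.21 and 2.76 (limma adjusted p = 0.00350 and 0.000856). They were 1.31 and 1.71 without background correction, so these sizes, the bounds included, depend on that step. The ETS factor Etv5 was higher by 1.13 and 1.32 on the log2 scale (limma adjusted p = 0.0276 and 0.0132). With the mean of its probes, Etv5 missed the threshold in primary tumors (0.96, limma adjusted p = 0.0640) and passed in recurrent tumors (1.17, adjusted p = 0.0309). Klf6, a zinc finger transcription factor, was called in recurrent tumors with a log2 difference of 1.03 (limma adjusted p = 0.00464) and was 0.78 in primary tumors, under 2-fold. Ier3, an immediate early gene linked to cell survival, had the largest difference of all 48 genes, -4.14 and -4.21 (limma adjusted p = 0.000557 and 0.000496), with 9.62 ± 0.21 (SD, n = 5) in primary tumors, 9.55 ± 1.11 in recurrent tumors, and 13.81 and 13.71 in SCC-7 cells. The calls of this list thus went both ways. Its median log2 difference was -0.47 in primary and -0.35 in recurrent tumors, beside -0.15 and -0.11 over all tested probes. Without SCC-7 sample 1, Fos missed the threshold in primary tumors (adjusted p = 0.0681) and Klf6 in recurrent tumors (adjusted p = 0.0790), and without sample 2 Klf6 had adjusted p = 0.0518. Klf6 in recurrent tumors was just past 2-fold and fell under it without recurrence 4 (0.97), without background correction (0.98), with the authors' values (0.997) and with the mean of its probes (0.88). Etv5 passed in neither tumor group without SCC-7 sample 1 (adjusted p = 0.200 and 0.135) or without sample 2 (adjusted p = 0.154 and 0.0996). The macrophage markers given above were higher in the same tumors, and their part in these differences was not tested.

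**Figure D5:**
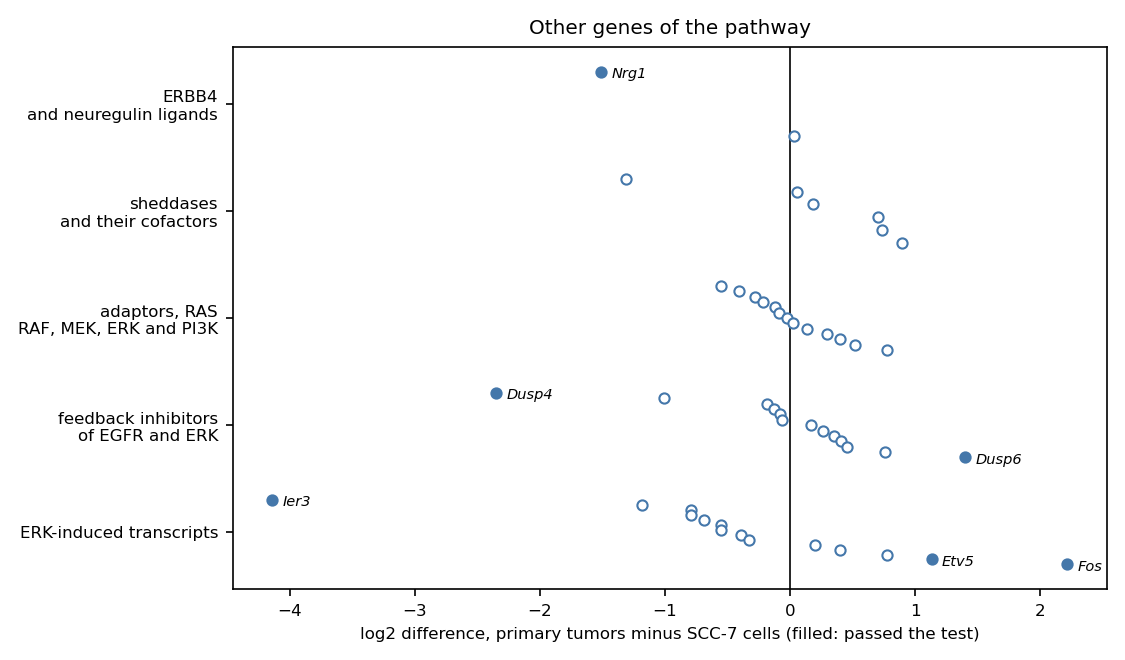
Log2 difference between primary tumors and SCC-7 cells (horizontal axis) for the 48 measured genes of 5 lists, with 1 point per gene and the genes that passed the test filled and named. The 6 filled points divide into 3 above and 3 below 0, and most open points lie within 1 of 0. The point of Fos is a fitted value, since Fos was not well above background in SCC-7 cells.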

How the data were processed

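Total RNA of 5 primary tumors, 5 recurrences and 2 SCC-7 samples was hybridized to 12 arrays. For each probe the authors deposited an intensity (the bead mean), neither background-corrected nor normalized, and a table of normalized intensity values whose method is not given in the sources used here. The 12 columns of deposited detection p-values were not used. Background was estimated from 943 negative controls (normexp, robust, offset 16), arrays were quantile normalized and set on the log2 scale (limma 3.58.1, R 4.3.3), and a probe was kept if detected on 2 or more of 12 arrays. The animal was a fixed block for recurrent against primary tumors. The pairing comes from the study, and deviations of paired tumors from their group means correlated at -0.37, 0.03, 0.34, 0.36 and 0.17 over probes, with 0 recurrences closest to their own primary tumor. The SCC-7 comparisons used 1 fit of 3 groups without the animal block. That fit pools the spread within groups, so p-values against SCC-7 cells rest mostly on the spread among tumors and not between cultures. The kept probe with the highest mean stood for a gene.

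Of the symbols, 34773 probes had 1, 18 had several and 10344 had none. The code of the fits was run on simulated data with planted changes. Those data had independent values without pairing or tissue makeup, so they do not test the calls given here. The members, gene lists and naming rule were chosen with earlier results of these data known. Named are all members, called list genes up to 4 per list and direction, and the 3 genes most like each of 3 members. No array repeats another (at most 0.0199% identical intensities). An effect of the slide could not be fitted, since slides are not given in the sources used here. The number of arrays limits the precision, and p-values set a difference against the spread between these samples. Figures were drawn with matplotlib 3.10.9.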

Additional observations from a re-analysis of the deposited data

Results flagged for a closer look

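In 4 of 18 groups of 5 tumors, 1 tumor lay far from the other 4. Chance gives about 1 in 20 for independent groups. These groups were 9 probes, 4 of them of Egfr, on the same tumors, so their count cannot be set against that rate. All 4 flags fell on primary tumor 3 or recurrence 2. Egfr by ILMN_2693922 was 6.999 in primary tumor 3, against 7.92 in the next lowest primary tumor. Epgn was 6.47 in recurrence 2, against 5.36 in the next highest recurrence, and was not well above background in recurrences 3, 4 and 5. Errfi1 was 9.79 in primary tumor 3, against 11.72 in the next lowest, and 13.66 in recurrence 2, against 12.08 in the next highest. Primary tumor 3 had the highest T and NK cell (10.18), neutrophil (8.36), fibroblast (8.62) and endothelium (8.42) marker levels of the tumors and the lowest macrophage level (9.36). Recurrence 2 had an adipocyte marker level of 7.80, second to primary tumor 1, from the list added after the values were seen. The part of these markers in these values was not tested.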

How the results depend on the processing

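Over 27 results of the family and 441 alternative values, 392 kept their direction and their side of the threshold, 28 no longer passed, 6 newly passed and 15 changed sign. Egfr (4 probes), Erbb2 and Btc stayed lower than SCC-7 cells in every alternative. For Egfr, by ILMN_1241496 or in 1 alternative by the mean of its 4 probes, the log2 difference ranged from -1.36 to -0.78 in primary tumors. In recurrent tumors it ranged from -1.58 to -1.07. The values -1.36 and -1.58 came from the mean of the 4 probes and not from ILMN_1241496 alone. The number of family genes called between primary tumors and SCC-7 cells, 1 (Btc), became 0 without background correction, with median scaling and with the authors' normalized values, and 2 with the mean of a gene's probes and with an adjusted p under 0.05 alone. Leaving out 1 array in turn gave 0 to 2. For recurrent tumors the count of 1 (Egfr) became 0 with median scaling and 0 to 2 on leaving out 1 array. Every comparison with SCC-7 cells assumes that these samples vary like the tumors. With 1 SCC-7 sample left, the spread comes from the tumors alone. For Egfr ILMN_1241496 the SD was 0.006 in SCC-7 samples, 0.38 in primary tumors and 0.28 in recurrent tumors. Without the animal block, 0 family genes were called between recurrent and primary tumors, and Errfi1 was unchanged at 0.76 (adjusted p = 0.991). The replicate block as a random effect changed no count of family genes called.

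The signs that changed belonged to small differences that passed no test. Hbegf, recurrent minus primary, was 0.000356 without background correction. Hbegf against SCC-7 cells was 0.35 (primary) and 0.28 (recurrent) with median scaling, and 0.068 and 0.066 with the authors' values. On leaving out 1 pair, recurrent minus primary ranged from -0.32 to 0.11 for Hbegf, from -0.39 to 0.14 for Erbb2 and from -0.16 to 0.0935 for Egfr ILMN_2693922. On leaving out 1 array, Hbegf against SCC-7 cells ranged from -0.31 to 0.16 in primary and from -0.43 to 0.11 in recurrent tumors. Of 238 alternative values for 14 results of pathway genes, 208 kept their call, 29 no longer passed, 1 newly passed and 0 changed sign. Without background correction, Nrg1 (-0.94 and -0.77) and Etv5 in primary tumors (0.90) were under 2-fold, as were they with the authors' values. The fitted difference of Fos was 1.31 and 1.71 without background correction, against 2.21 and 2.76. Without a filter on dim probes, Dusp4 missed the threshold in primary and recurrent tumors (adjusted p = 0.0548 and 0.0520), as did Egfr ILMN_2693922 (adjusted p = 0.0702 and 0.0600). The cause of these changes was not tested. Brightness limits Btc and Epgn, whose probes lay near the negative controls. It also limits Nrg1 in tumors, and Hbegf and Egfr ILMN_3052260 on their dimmest arrays. There the log2 ratio to the 99th percentile of the negative controls was 0.05 for Hbegf and 0.17 for Egfr ILMN_3052260.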
